A study of Homo sapiens with 16 samples.

Results

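Oxidative phosphorylation makes most of the ATP of a resting cell. Complexes I and II pass electrons from NADH and succinate to coenzyme Q, complex III passes them on to cytochrome c, complex IV hands them to oxygen, and complex V, the ATP synthase, makes ATP from the proton gradient built by complexes I, III and IV. The subunits come from both genomes: mitochondrial DNA encodes the hydrophobic cores of complexes I, III, IV and V, while all other subunits, and the whole of complex II, are encoded in the nucleus and imported.

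The genes described here were chosen by name: every row of the count table whose symbol belongs to the families of complex I to V subunits, 158 of 59081 rows. They comprised 95 protein-coding genes and 63 pseudogenes. Rows with fewer than 10 counts on average were left out, which removed 68: 62 pseudogenes and 6 protein-coding genes with tissue-limited or copy status (COX6A2, COX7A1, COX7B2, COX8C, UQCRHL and ATP5MGL). The 90 rows kept were all tested and held 76 nuclear protein-coding genes, 13 mitochondrially encoded genes and the pseudogene UQCRFS1P1. The low-count filter on all genes removed none of them.

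RNA was taken from U2OS cells, a human osteosarcoma line grown in high-glucose medium with pyruvate, in 16 libraries of 4 groups. The 4 harmine libraries came from cells given 10 µM harmine hydrochloride, the 4 water libraries from cells given its vehicle, the 4 INDY libraries from cells given 25 µM INDY, and the 4 DMSO libraries from cells given its vehicle. All groups were confluent and without serum for 48 h, with compound or vehicle for the last 24 h, so that cells of the controls were quiescent too. Both compounds, harmine a beta-carboline and INDY a benzothiazole, inhibit the kinase DYRK1A, and the study used them to lift the repression that the DREAM complex exerts in such cells. Their doses and vehicles differed. Whether libraries of one group stem from separate cultures is not stated in the labels. The p-values therefore reflect library-to-library spread, which could be technical only.

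Libraries held 44301910 to 54070027 estimated counts with harmine, 50376843 to 65889667 with water, 47612494 to 63417416 with INDY and 46139738 to 60993935 with DMSO. Among markers of the cells, VIM and SPARC were high in every library and COL1A2, a defining osteoblast collagen, was nearly absent (group means of 0.032 to 0.12 CPM). Of the listed markers, 4 of 5 mesenchymal and 3 of 5 epithelial genes passed the low-count filter. So did 1 of 5 blood and 3 of 3 endothelial genes. Passing that filter does not show a high level, and levels of the other listed markers are not given here. Values are CPM, counts scaled to a common library size with TMM factors. In bulk RNA, fewer cells with a transcript and less of it per cell cannot be told apart. A gene was called at an adjusted p under 0.01, by edgeR's quasi-likelihood test with Benjamini-Hochberg adjustment across the 20446 genes that passed the low-count filter.

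The nuclear subunit mRNAs moved in both directions with either compound, mostly by little. With harmine, 21 of 76 rose (27.6%) and 14 fell (18.4%), where 24.9% of all genes tested were called higher and 22.8% lower. With INDY, 31 of 76 rose (40.8%) and 21 fell (27.6%), where 33.2% of all genes tested were called higher and 33.4% lower. Their median log2 fold change was 0.05 with harmine and 0.06 with INDY, beside medians of 0.02 and -0.01 over all genes tested. Without INDY replicates 1 and 3, left out after seeing the data, the INDY median was 0.11, with 32 called higher and 20 lower.

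Most of these changes were small. No nuclear subunit changed by 1.5-fold or more with harmine, where log2 fold changes ran from -0.45 to 0.58. With INDY the range was -2.44 to 0.60, and 2 genes rose and 6 fell by at least 1.5-fold. Of all 20446 genes tested, 1720 were called at least 1.5-fold higher and 1615 lower with harmine, and 2914 and 3975 with INDY. The summed level of the 76 genes differed little between groups: 6268 ± 73.0 CPM with harmine against 6072 ± 154 CPM with water, and 6144 ± 191 CPM with INDY against 6234 ± 88.5 CPM with DMSO (SD, n = 4 libraries each).

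**Figure D1:**
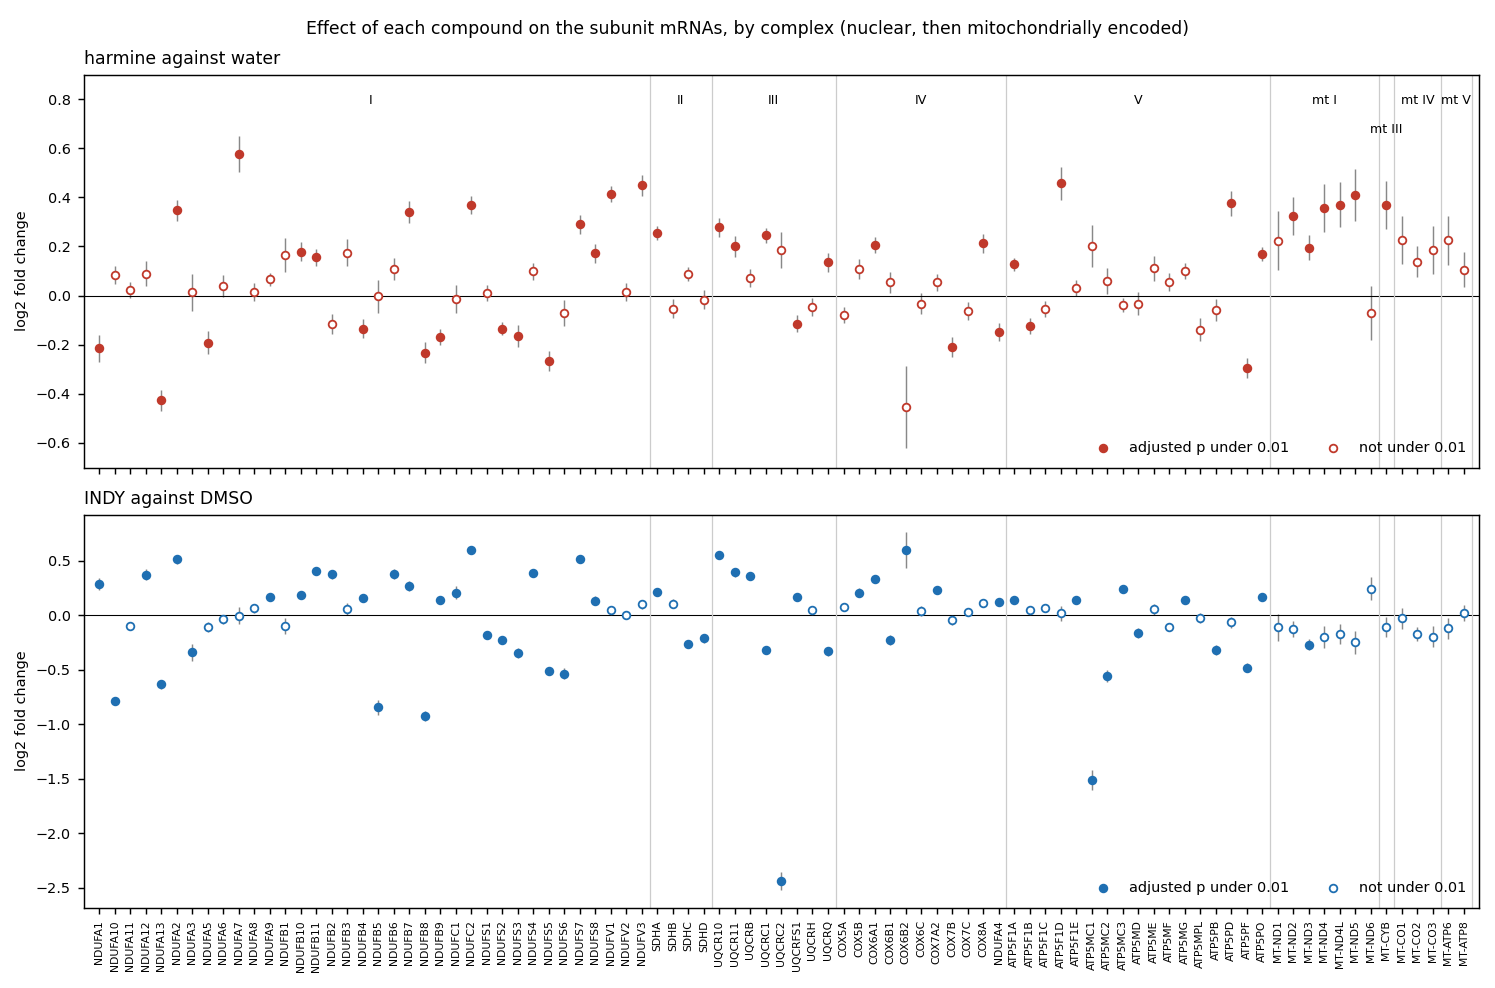
Log2 fold change of each subunit mRNA (points; bars, SE), ordered by complex with nuclear genes first and mitochondrially encoded genes (mt) last, with harmine against water above and INDY against DMSO below on its own scale. Filled points passed an adjusted p of 0.01. Harmine effects lie between -0.45 and 0.58, and UQCRC2 at -2.44 and ATP5MC1 at -1.51 stand below the other INDY effects.

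The calls of both compounds coincided for 13 nuclear genes called higher with each (17.1%, beside 12.1% of all genes tested) and 6 called lower with each (7.89%, beside 12%). Another 5 were called lower with harmine and higher with INDY (NDUFA1, NDUFB4, NDUFB9, UQCRFS1 and NDUFA4, of which the first 3 were picked out after their values were seen), and UQCRQ and UQCRC1 were called higher with harmine and lower with INDY. These opposite calls made up 6.58% and 2.63% of the nuclear genes, beside 4.55% and 6.26% of all genes tested. Neither compound gave a call for 15 (19.7%, beside 20.6%). Testing the difference itself, the INDY effect was above the harmine effect for 19 nuclear genes (25% of 76) and below it for 23 (30.3%), beside 26.4% and 28.1% of all genes tested, with a median difference of 0.00. Dose and vehicle differed along with the compound in this difference.

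**Figure D2:**
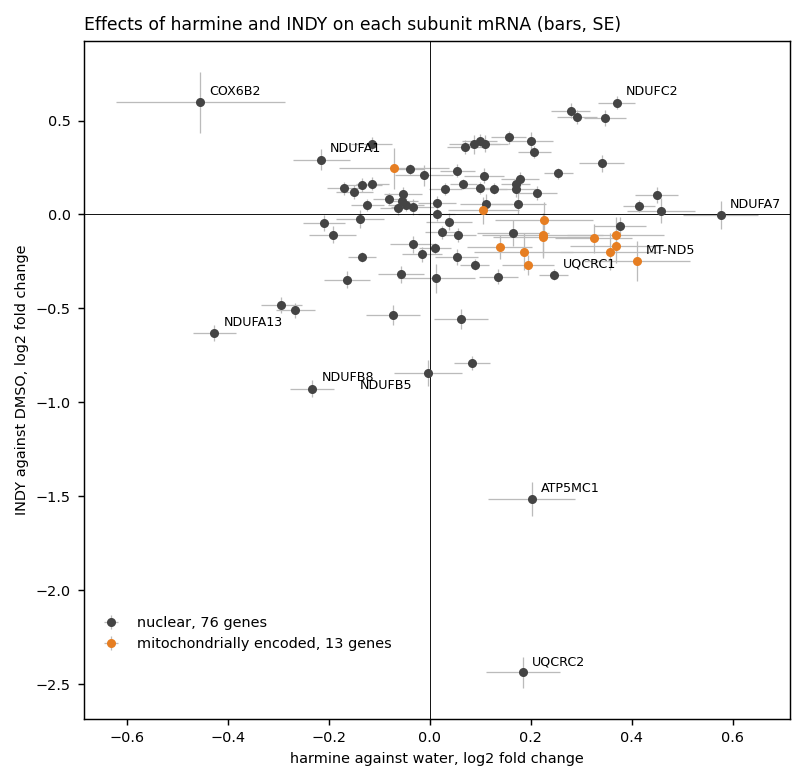
Log2 fold change of each subunit mRNA with INDY against DMSO (vertical axis) over that with harmine against water (horizontal axis, a narrower scale), bars SE, for 76 nuclear and 13 mitochondrially encoded genes. The 2 comparisons share no library. All but 1 of the mitochondrially encoded genes lie to the right of 0, and UQCRC2 and ATP5MC1 lie far below the other genes.

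Differences between the vehicles were not called for these genes, but some were as large as called effects of the compounds. Log2 fold changes of DMSO against water ran from -0.33 to 0.27 for nuclear genes. For mitochondrially encoded genes they ran from -0.02 to 0.31. MT-ND5 was at 1221 ± 233 CPM with DMSO against 983 ± 84.0 CPM with water, and ATP5F1D at 29.9 ± 0.50 CPM against 24.8 ± 1.25 CPM. Between DMSO and water libraries, edgeR called none of the 76 nuclear and none of the 13 mitochondrially encoded genes, against 1.58% of all genes tested called higher and 2.71% lower. At an unadjusted p under 0.05 there were 15 nuclear genes and 1 mitochondrially encoded gene, beside 5470 of all 20446 genes tested. DESeq2 called 1 nuclear gene higher, beside 691 of all genes tested.

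Nuclear genes for respiratory chain subunits are known as targets of NRF1, of the ETS factor GABP (NRF2) and of YY1. RefSeq promoters (GRCh38.p14, 250 bases before to 50 after the start) were at hand for 63 of the 76 nuclear genes and were searched on both strands for GCATGCGC (NRF1 core), CCGGAAG (ETS core) and AAGATGGCG (YY1 core). Matches on opposite strands can overlap and count once per promoter. The NRF1 core was in 13 (20.6%) of the members' promoters, the ETS core in 19 (30.2%) and the YY1 core in 8 (12.7%). Of 15345 protein-coding genes in the same collection, 4.25% held the NRF1 core, 14.4% the ETS core and 2.8% the YY1 core, and of all 27305 entries 3.27%, 10.7% and 1.85% did. None of the 3 was found in 33 members' promoters, all 3 in 2.

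The promoters of 4 genes are shown. UQCRC2, the largest change of any subunit, and ATP5MC2, a c-ring gene that fell with INDY, were picked for their changes. ATP5PF and NDUFS7 were picked for the motifs they hold, all 3 in ATP5PF. ATP5PF fell with both compounds and NDUFS7 rose with both. SDHB, the other gene with all 3 motifs, was called with neither compound, and its promoter is not shown. Capitals mark the motif matches, on either strand, and each runs 5′ to 3′ on the gene's strand (UQCRC2, chr16:21953111-21953410, plus; ATP5MC2, chr12:53676034-53676333, minus; ATP5PF, chr21:25735005-25735304, minus; NDUFS7, chr19:1383657-1383956, plus).
UQCRC2: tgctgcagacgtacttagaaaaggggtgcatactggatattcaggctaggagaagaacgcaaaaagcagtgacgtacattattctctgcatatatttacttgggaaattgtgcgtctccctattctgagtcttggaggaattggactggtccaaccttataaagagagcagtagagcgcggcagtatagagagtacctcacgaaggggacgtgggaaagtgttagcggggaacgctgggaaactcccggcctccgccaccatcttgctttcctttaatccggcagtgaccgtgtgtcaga
ATP5MC2: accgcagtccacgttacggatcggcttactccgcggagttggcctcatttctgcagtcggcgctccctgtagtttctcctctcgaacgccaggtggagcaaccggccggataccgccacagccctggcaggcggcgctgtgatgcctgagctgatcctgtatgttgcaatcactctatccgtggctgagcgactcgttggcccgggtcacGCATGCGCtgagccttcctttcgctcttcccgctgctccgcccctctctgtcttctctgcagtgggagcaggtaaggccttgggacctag
ATP5PF: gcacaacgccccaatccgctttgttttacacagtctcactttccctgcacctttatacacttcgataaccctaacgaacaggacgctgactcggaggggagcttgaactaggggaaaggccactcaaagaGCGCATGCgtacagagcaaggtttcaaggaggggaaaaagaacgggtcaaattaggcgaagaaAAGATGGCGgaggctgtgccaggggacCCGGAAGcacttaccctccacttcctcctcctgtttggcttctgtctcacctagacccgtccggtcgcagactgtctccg
NDUFS7: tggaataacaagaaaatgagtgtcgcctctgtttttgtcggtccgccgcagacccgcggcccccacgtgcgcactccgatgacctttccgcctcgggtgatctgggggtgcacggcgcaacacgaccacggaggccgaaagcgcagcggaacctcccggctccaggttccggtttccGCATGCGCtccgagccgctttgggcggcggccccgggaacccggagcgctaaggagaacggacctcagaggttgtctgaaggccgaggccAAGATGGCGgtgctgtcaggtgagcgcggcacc
No match in the UQCRC2 window says only that these letters are not in it.

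Calls were also counted for genes with and without each motif. With the NRF1 core, 2 of 13 genes were called higher and 2 lower with harmine and 4 and 4 with INDY. Of the 50 searched genes without it, 17 were higher and 7 lower with harmine, and 22 and 13 with INDY. The 19 genes with the ETS core had 6 higher and 4 lower with harmine, and 6 and 8 with INDY, while the 44 without it had 13 and 5 with harmine, and 20 and 9 with INDY. The 8 genes with the YY1 core had 3 higher and 1 lower with harmine, and 3 and 2 with INDY, while the 55 without it had 16 and 8 with harmine, and 23 and 15 with INDY. Median log2 fold changes with harmine were 0.01 with and 0.09 without the NRF1 core, 0.05 and 0.06 for the ETS core, and 0.08 and 0.05 for the YY1 core. With INDY they were 0.06 with and 0.07 without the NRF1 core, 0.05 and 0.08 for the ETS core, and 0.05 and 0.06 for the YY1 core. These are counts over few genes, and the differences were not tested. Of all genes tested, 24.9% were called higher and 22.8% lower with harmine, and 33.2% and 33.4% with INDY.

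Complex I is the entry point for NADH, with a matrix arm that oxidises it and a membrane arm that pumps protons. Of its 36 nuclear genes, 10 rose and 9 fell with harmine (median log2 fold change 0.03), and 16 rose and 10 fell with INDY (median 0.06). These were 27.8% and 25% with harmine, beside 24.9% and 22.8% of all genes tested. With INDY they were 44.4% and 27.8%, beside 33.2% and 33.4%. In the matrix arm, 6 of 16 rose and 3 fell with harmine, and 6 rose and 4 fell with INDY. In the membrane arm, 4 of 20 rose and 6 fell with harmine, and 10 rose and 6 fell with INDY. The 7 nuclear core subunits, which carry the flavin and the iron-sulphur clusters, split likewise, with 3 rising and 2 falling with harmine and 2 rising and 3 falling with INDY.

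The largest rises of complex I with harmine were in 2 accessory subunits of the matrix arm. NDUFA7 was at 12.66, 12.04, 11.22 and 11.03 CPM in harmine libraries, against 7.99, 7.66, 8.30 and 7.52 CPM in water libraries. Every harmine library lay above every water library, a log2 fold change of 0.58 ± 0.07 (SE; edgeR adjusted p = 2.4e-06). With INDY NDUFA7 was at 8.58 ± 1.01 CPM against 8.59 ± 0.49 CPM with DMSO. NDUFA7 shares 23.9% of its 100-nt stretches with a longer neighbouring transcript unit, itself at 2.74 ± 0.72 CPM with harmine and 1.95 ± 0.17 CPM with water. NDUFV3 was at 25.1 ± 0.13 CPM in harmine libraries against 18.4 ± 0.91 CPM in water libraries, a log2 fold change of 0.45 ± 0.04 (edgeR adjusted p = 3.9e-08).

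With INDY the largest rises of complex I were NDUFC2 and NDUFS7. NDUFC2, an accessory membrane-arm subunit, had 57.5, 55.7, 58.5 and 58.9 CPM in INDY libraries, against 38.2, 40.1, 36.9 and 37.4 CPM in DMSO libraries. The groups were far apart, with a log2 fold change of 0.60 ± 0.04 (edgeR adjusted p = 4.1e-11). Harmine also raised NDUFC2, to 50.8 ± 1.71 CPM against 39.4 ± 1.56 CPM with water (0.37 ± 0.04). It shares 13.4% of its stretches with a read-through gene. NDUFS7, a core subunit that holds the last iron-sulphur cluster before coenzyme Q, was at 33.8, 33.6, 33.7 and 32.7 CPM with INDY, against 23.6, 23.7, 22.8 and 23.4 CPM with DMSO. Its log2 fold change was 0.52 ± 0.04 with INDY (edgeR adjusted p = 6.7e-10) and 0.29 ± 0.04 with harmine (4.2e-06).

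Falls with INDY in complex I went further than its rises. NDUFB8, an accessory subunit of the membrane arm whose protein is widely used as a gauge of assembled complex I, was at 28.1, 32.2, 28.7 and 32.8 CPM in INDY libraries, against 58.6, 58.4, 59.7 and 54.6 CPM in DMSO libraries. Its log2 fold change was -0.93 ± 0.04 (edgeR adjusted p = 1.4e-12). With harmine it fell to 49.3 ± 0.37 CPM, against 57.9 ± 1.62 CPM with water. NDUFB8 shares 33.5% of its 100-nt stretches with 1 overlapping gene entry, which was at 7.34 ± 0.79 CPM with INDY against 2.18 ± 0.16 CPM with DMSO. How reads were split between them was not tested.

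NDUFB5, another membrane-arm subunit, was at 29.4, 32.7, 23.9 and 32.1 CPM with INDY, against 49.7, 54.8, 53.2 and 53.6 CPM with DMSO (log2 fold change -0.84 ± 0.07, edgeR adjusted p = 2.4e-09). INDY replicate 3 was the lowest. With harmine its log2 fold change was 0.00, and it was not called. NDUFA10 (-0.79) and NDUFS6 (-0.53), picked out after their values were seen, also fell with INDY and were not called with harmine.

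NDUFA13 and NDUFS5, membrane-arm subunits, were the complex I genes that fell most with harmine. NDUFA13 was at 32.7, 31.1, 32.9 and 34.7 CPM with harmine, against 44.8, 44.7, 43.5 and 43.6 CPM with water. No harmine library reached the water range, and the log2 fold change was -0.43 ± 0.04 (edgeR adjusted p = 1.0e-07). With INDY it fell further, to 27.4 ± 1.20 CPM against 42.4 ± 2.29 CPM with DMSO. Entries that share 13.2% of its 100-nt stretches went the other way, with 37.2 ± 3.32 CPM with harmine against 28.0 ± 2.25 CPM with water. Whether reads moved between them was not tested. NDUFS5 fell with harmine (-0.27 ± 0.04) and with INDY (-0.51 ± 0.04), and shares none of its stretches with other genes.

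NDUFA1, an accessory subunit encoded on the X chromosome, took opposite directions. It was at 21.0, 22.9, 24.0 and 22.6 CPM with harmine, against 25.1, 27.4, 27.1 and 25.5 CPM with water. With INDY it was at 32.2, 33.6, 33.5 and 31.2 CPM, against 29.8, 27.1, 24.3 and 25.4 CPM with DMSO. Harmine gave a log2 fold change of -0.22 ± 0.06 and INDY one of 0.29 ± 0.06, and their difference of 0.51 passed the test (edgeR adjusted p = 1.9e-05).

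Complex II, succinate dehydrogenase, is the only respiratory complex with all its subunits from the nucleus, and its parts differed with INDY. SDHA, the flavoprotein that oxidises succinate, rose with both compounds, to 148 ± 1.64 CPM with harmine against 124 ± 4.75 CPM with water, and to 141 ± 1.38 CPM with INDY against 121 ± 3.17 CPM with DMSO. Log2 fold changes were 0.25 ± 0.03 and 0.22 ± 0.03. SDHA shares 18.3% of its stretches with other gene entries, of which 4 had values in the count table and together were at 55.5 ± 7.46 CPM with INDY against 29.1 ± 1.39 CPM with DMSO. The membrane anchors SDHC and SDHD fell with INDY, by 0.27 ± 0.03 and 0.21 ± 0.04 on the log2 scale (edgeR adjusted p = 1.4e-07 and 9.3e-05), and were not called with harmine. SDHB, the iron-sulphur subunit, was not called with either.

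Complex III held the largest change of any subunit. UQCRC2, which with UQCRC1 forms the large matrix-facing core of the complex, was at 15.5, 22.3, 15.1 and 20.7 CPM in INDY libraries, against 101, 99.7, 100.2 and 95.7 CPM in DMSO libraries. Every INDY library was far below every DMSO library, and INDY replicates 1 and 3 were the lowest. The log2 fold change was -2.44 ± 0.08 (edgeR adjusted p = 1.1e-14), and -2.20 without INDY replicates 1 and 3. With harmine UQCRC2 was at 110, 108, 109.5 and 110.2 CPM, against 95.3, 97.4, 99.0 and 93.4 CPM with water, a log2 fold change of 0.18 ± 0.07 that was not called (edgeR adjusted p = 0.039). It was called when only the harmine and water libraries were fitted (edgeR adjusted p = 8.48e-05). UQCRC2 lies at 21953288 to 21983660 on chromosome 16 (GRCh38), and none of its 100-nt stretches occurs in another gene's transcripts.

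UQCRC1 fell with INDY as well, but by far less. It was at 132, 135, 128 and 136 CPM with INDY, against 168, 164, 165 and 166 CPM with DMSO (log2 fold change -0.32 ± 0.03, edgeR adjusted p = 1.1e-08). With harmine it rose, to 201 ± 2.60 CPM against 170 ± 6.86 CPM with water (0.24 ± 0.03, edgeR adjusted p = 9.3e-07). UQCRQ, a small subunit, had the same pair of directions, at 0.14 ± 0.04 with harmine and -0.33 ± 0.04 with INDY. Its harmine call was lost without any of 7 of the 8 libraries compared, taken out one at a time, with adjusted p up to 0.031.

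Other complex III genes rose with INDY. UQCR10, a small subunit, was at 50.1, 47.4, 50.8 and 49.4 CPM with INDY, against 34.9, 34.5, 32.2 and 33.2 CPM with DMSO (log2 fold change 0.55 ± 0.04, edgeR adjusted p = 3.0e-10). It rose with harmine too, to 43.6 ± 1.83 CPM against 35.9 ± 1.34 CPM with water (0.28 ± 0.04). UQCR11 rose with both, with log2 fold changes of 0.20 ± 0.04 (harmine) and 0.39 ± 0.04 (INDY). UQCRFS1, the Rieske iron-sulphur protein, had -0.11 ± 0.03 with harmine and 0.16 ± 0.03 with INDY, and its harmine call was lost without water replicate 1 or 2 (edgeR adjusted p = 0.016 and 0.012). UQCRH, the hinge protein, was called with neither, and its near-copy UQCRHL stayed at or below 0.24 CPM in every library.

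**Figure D3:**
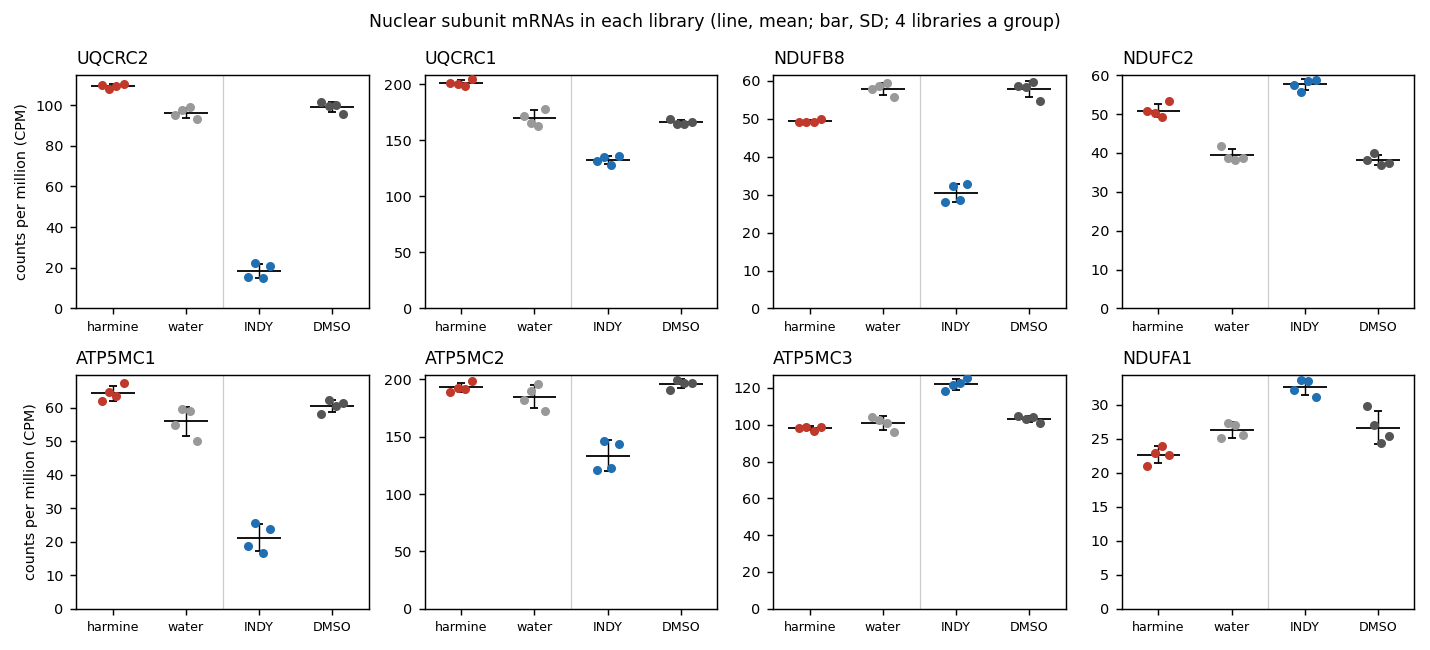
CPM of 8 nuclear subunit mRNAs in each library (points), with the mean (line) and SD (bar) of the 4 libraries of each group and harmine left of water, INDY left of DMSO. UQCRC2 lies at 15.1 to 22.3 CPM with INDY and at 93.4 CPM or more in every other library, and ATP5MC1 at 16.7 to 25.5 CPM with INDY and 50.1 CPM or more elsewhere.

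Nuclear subunits of complex IV, cytochrome c oxidase, surround the catalytic core that mitochondrial DNA encodes. Of 11 tested, 2 rose and 2 fell with harmine (median log2 fold change -0.03), and 5 rose and 1 fell with INDY (median 0.11). These were 18.2% in each direction with harmine, beside 24.9% and 22.8% of all genes tested. With INDY they were 45.5% and 9.09%, beside 33.2% and 33.4%. COX6A1, the widely expressed form of subunit 6A, rose with both, to 186 ± 3.45 CPM with harmine against 161 ± 4.35 CPM with water, and to 206 ± 10.2 CPM with INDY against 163 ± 2.69 CPM with DMSO. COX8A rose with harmine (0.21 ± 0.04), while COX7B fell (-0.21 ± 0.04, edgeR adjusted p = 0.0003). NDUFA4, named after complex I but known as a subunit of complex IV, fell with harmine (-0.15 ± 0.04) and rose with INDY (0.12 ± 0.04). Its INDY libraries overlapped the DMSO libraries, and the call was lost without DMSO replicate 3 or 4 or INDY replicate 3 or 4, with edgeR adjusted p from 0.014 to 0.024, and when only the INDY and DMSO libraries were fitted (edgeR adjusted p = 0.026).

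The isoforms of subunit 6B were called in opposite directions with INDY, but the COX6B2 call did not hold in all fits. COX6B1, the form of most tissues, was at 50.4, 55.0, 55.3 and 58.1 CPM with INDY, against 62.6, 67.7, 61.2 and 64.6 CPM with DMSO (log2 fold change -0.23 ± 0.04, edgeR adjusted p = 0.0001). COX6B2, the testis form, was at 0.92, 1.21, 1.32 and 1.03 CPM with INDY, against 0.76, 0.87, 0.58 and 0.75 CPM with DMSO (0.60 ± 0.16, edgeR adjusted p = 0.0029). Its call was lost without DMSO replicate 3 or INDY replicate 3 (edgeR adjusted p = 0.014 for each), and when only the INDY and DMSO libraries were fitted (edgeR adjusted p = 0.0102). COX7A2, the form of subunit 7A found in most tissues, rose with INDY (0.23 ± 0.03). The muscle forms COX6A2 and COX7A1 and the testis forms COX7B2 and COX8C were among the genes under 10 counts.

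Complex V rotates a membrane ring of c subunits against the catalytic F1 head, with a peripheral stalk that holds the head in place. Its 17 nuclear genes had 4 rises and 2 falls with harmine (median log2 fold change 0.06) and 5 rises and 5 falls with INDY (median 0.02). These were 23.5% and 11.8% with harmine, beside 24.9% and 22.8% of all genes tested. With INDY they were 29.4% in each direction, beside 33.2% and 33.4%. The clearest contrast lay among the 3 c-ring genes, ATP5MC1, ATP5MC2 and ATP5MC3, which encode the same mature protein behind different import sequences.

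ATP5MC1 was at 18.8, 25.5, 16.7 and 23.9 CPM in INDY libraries, against 58.2, 62.2, 60.3 and 61.5 CPM in DMSO libraries. The groups did not overlap, and the log2 fold change was -1.51 ± 0.09 (edgeR adjusted p = 3.2e-11), or -1.29 without INDY replicates 1 and 3. ATP5MC2 was at 121, 146, 122 and 144 CPM with INDY, against 191, 199.8, 197 and 197 CPM with DMSO (-0.56 ± 0.05, edgeR adjusted p = 2.0e-08). ATP5MC3 went the other way, at 118, 122, 122 and 126 CPM with INDY, against 105, 103, 104 and 101 CPM with DMSO (0.24 ± 0.03, edgeR adjusted p = 4.1e-07).

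Harmine gave no call for any of the c-ring genes. ATP5MC1 was at 64.3 ± 2.22 CPM with harmine against 55.9 ± 4.40 CPM with water, a log2 fold change of 0.20 ± 0.09 (edgeR adjusted p = 0.052), and was called when only these 2 groups were fitted (edgeR adjusted p = 0.0051). ATP5MC1 lies at 48892765 to 48895871 on chromosome 17 and shares no 100-nt stretch with another gene, and ATP5MC2 shares 4.4% with a ribosomal protein pseudogene.

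In the F1 head, ATP5F1D, the delta subunit of the central stalk, was at 28.2, 34.8, 36.1 and 37.0 CPM with harmine, against 24.1, 25.6, 26.1 and 23.4 CPM with water. Harmine replicate 1 was the lowest of its group yet above all water libraries, and the log2 fold change was 0.46 ± 0.07 (edgeR adjusted p = 1.1e-05). With INDY it was at 30.4 ± 2.13 CPM against 29.9 ± 0.50 CPM with DMSO. The catalytic subunit ATP5F1B fell with harmine by 0.12 ± 0.03 on the log2 scale (edgeR adjusted p = 0.0033) and was not called with INDY. ATP5F1A, picked out after its values were seen, was at 380 ± 4.49 CPM with harmine against 348 ± 8.25 CPM with water. With INDY it was at 405 ± 14.3 CPM against 368 ± 2.77 CPM with DMSO. Of 5 F1 genes, 2 rose (40%) and 1 fell (20%) with harmine, beside 24.9% and 22.8% of all genes tested. With INDY 2 rose (40%) and none fell, beside 33.2% and 33.4%.

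Peripheral stalk genes also split. ATP5PF, which encodes coupling factor 6, fell with both compounds: to 54.1 ± 1.79 CPM with harmine against 66.4 ± 3.29 CPM with water, and to 47.1 ± 2.55 CPM with INDY against 65.8 ± 0.58 CPM with DMSO. Its log2 fold changes were -0.29 ± 0.04 and -0.48 ± 0.04. ATP5PD (subunit d) rose with harmine (0.38 ± 0.05, edgeR adjusted p = 4.2e-06) but had -0.06 ± 0.05 with INDY, not called. ATP5PO, which joins the stalk to the head, rose with both, by 0.17 ± 0.03 with harmine and 0.16 ± 0.03 with INDY.

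The mitochondrially encoded mRNAs are cut from long transcripts of both strands of one small circular genome, and MT-ND6 alone lies on the opposite strand to the other 12. With harmine, 6 of 13 rose (46.2%, beside 24.9% of all genes tested) and none fell, with a median log2 fold change of 0.22 and 12 of 13 above 0. With INDY none rose and only MT-ND3 fell (7.69%), beside 33.2% of all genes tested called higher and 33.4% lower. The INDY median was -0.13, with 2 of 13 above 0. The wide spread of these genes between libraries limits what can be called. With the replicate number as a block, 5 were called lower with INDY and 9 higher with harmine.

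The count of harmine calls depended on single libraries. Without one library at a time, the count of mitochondrially encoded genes called higher was 3 without water replicate 1, 1 without water replicate 2, 2 without water replicate 3, 1 without harmine replicate 3 and 1 without harmine replicate 4, with MT-ND2 called in each of these fits. Over all 8 fits that left out one library, the count ran from 1 to 7 and the median log2 fold change from 0.17 to 0.31. Without both water replicates 1 and 4, left out after seeing the data, 5 were called higher. For INDY the count called lower was 3 without DMSO replicate 1, and 2 without DMSO replicate 2 or INDY replicate 3.

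Summed over the 13 genes, harmine libraries held 26271, 27044, 30537 and 30032 CPM, against 23048, 22309, 23337 and 26915 CPM in water libraries. INDY libraries held 21989, 22125, 27585 and 23880 CPM, against 23020, 23245, 30037 and 28414 CPM in DMSO libraries. The harmine range overlapped that of water only through harmine replicate 1 and water replicate 4, and the INDY range lay within and below that of DMSO. DMSO replicate 3 and harmine replicate 4 were nearly equal, and the DMSO median effect over water was 0.10, with no gene called. As shares of all counts, they took 2.59 to 3.02% with harmine against 2.27 to 2.72% with water, and 2.19 to 2.71% with INDY against 2.32 to 3.004% with DMSO.

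**Figure D4:**
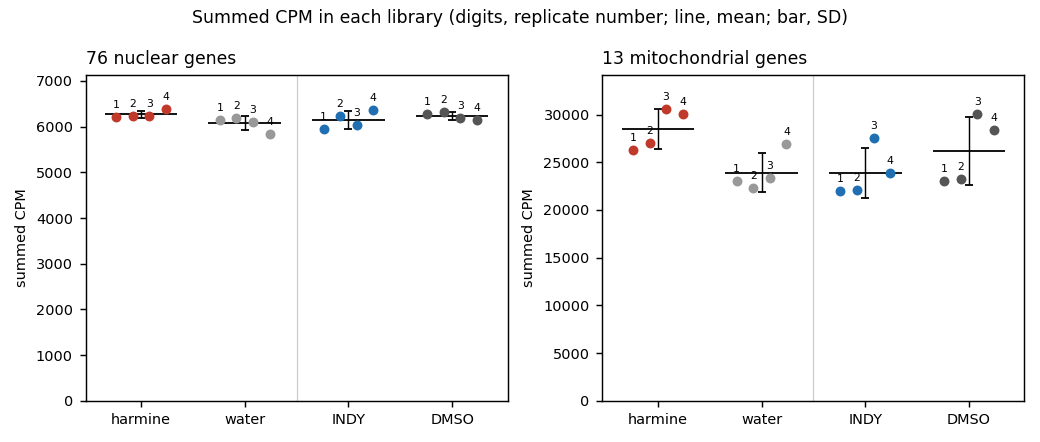
Summed CPM of the 76 nuclear genes (left) and the 13 mitochondrially encoded genes (right) in each library; digits give the replicate number, lines the mean and bars the SD of 4 libraries. The nuclear sums lie between 5848 and 6376 CPM, and the mitochondrial sums run from 21989 CPM in an INDY library to 30537 CPM in a harmine library, with wide spread within each group.

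Within a group the mitochondrially encoded genes varied together from library to library. Harmine replicate 1 was the lowest of its group for all 13 genes, and harmine replicate 3 the highest for 10. INDY replicate 3 was the highest of its group for all 13, water replicate 4 for 12 and DMSO replicate 3 for 11. Their SD of log2 CPM between libraries of a group had a median of 0.12 with harmine, 0.14 with water, 0.16 with INDY and 0.20 with DMSO, against 0.04, 0.06, 0.06 and 0.05 for the nuclear genes.

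Of the 6 mitochondrially encoded genes called higher with harmine, 5 were of complex I and the other was MT-CYB of complex III. MT-ND5, a proton-pumping subunit, was at 1194, 1215, 1418 and 1401 CPM with harmine, against 897, 950.0, 991 and 1096 CPM with water. All harmine libraries were above all water libraries, and the log2 fold change was 0.41 ± 0.11 (edgeR adjusted p = 0.0026). MT-ND2, another pumping subunit, was at 2896, 2982, 3144 and 3031 CPM with harmine, against 2342, 2292, 2449 and 2546 CPM with water (0.32 ± 0.08, edgeR adjusted p = 0.0012). MT-ND2 shares 26.1% of its stretches with the nuclear copy MTND2P28, which was at 62.4 ± 4.17 CPM with harmine against 49.1 ± 3.16 CPM with water.

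MT-ND4 and MT-ND4L, neighbours that overlap on one transcript, had log2 fold changes of 0.36 ± 0.10 and 0.37 ± 0.09 with harmine, and the MT-ND4L libraries of harmine and water overlapped. MT-ND1 had 0.22 ± 0.12 and was not called. MT-CYB, the cytochrome b of complex III, was at 1713, 1761, 2066 and 2026 CPM with harmine, against 1374, 1364, 1423 and 1701 CPM with water (0.37 ± 0.10, edgeR adjusted p = 0.0029). In complex IV, MT-CO1, MT-CO2 and MT-CO3 had 0.23 ± 0.10, 0.14 ± 0.06 and 0.19 ± 0.10 with harmine, and in complex V the overlapping pair MT-ATP6 and MT-ATP8 had 0.22 ± 0.10 and 0.11 ± 0.07. None of these 5 was called.

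MT-ND3, a small core subunit at the joint of the arms of complex I, was called with both compounds in opposite directions. It was at 631, 644, 663 and 637 CPM with harmine, against 587, 549, 543 and 572 CPM with water (0.19 ± 0.05, edgeR adjusted p = 0.0031). With INDY it was at 413, 446, 510.3 and 468 CPM, against 506, 563, 572 and 573 CPM with DMSO (-0.27 ± 0.05, edgeR adjusted p = 0.0001). INDY replicate 3 lay just above DMSO replicate 1, so the groups overlapped.

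MT-ND6, from the other strand (14149 to 14673 of the mitochondrial genome), was the exception. It was at 20.5, 20.8, 21.4 and 21.5 CPM with harmine, against 21.2, 21.0, 21.0 and 25.4 CPM with water. With INDY it was at 22.1, 22.5, 31.6 and 28.9 CPM, against 24.1, 18.6, 25.4 and 20.4 CPM with DMSO. Its log2 fold changes, -0.07 ± 0.11 with harmine and 0.25 ± 0.11 with INDY, had the opposite sign to those of most of the other 12, and neither was called. Libraries were made from poly(A) RNA, and the MT-ND6 mRNA is known to carry little or no poly(A) tail.

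Tested directly, the INDY effect lay below the harmine effect for 7 of the 13 (53.8%, beside 28.1% of all genes tested) and above it for none, with a median difference of -0.38. The 7 were MT-ND2, MT-ND3, MT-ND4, MT-ND4L, MT-ND5, MT-CYB and MT-CO2, with MT-ND5 at -0.66 (edgeR adjusted p = 0.0008). Leaving out any one library gave 5 to 8.

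Genes that build or serve the complexes were counted from lists written from general knowledge, with earlier results of these data known. Their counts stand beside 24.9% higher and 22.8% lower among all genes tested with harmine, and 33.2% and 33.4% with INDY. Among 7 subunits or carriers that the name families miss, 3 rose and 1 fell with harmine, and 3 rose and 3 fell with INDY. CYC1, the cytochrome c1 of complex III, rose with harmine (0.29 ± 0.04), as did ATP5IF1, the inhibitor of complex V (0.28 ± 0.04). DMAC2L, a coupling factor of complex V, and CYCS, cytochrome c, fell with INDY (-0.33 ± 0.06 and -0.32 ± 0.05). CYCS also fell with harmine.

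Assembly factors of complex III moved in both directions with INDY. UQCC3 was at 13.3 ± 1.96 CPM with INDY against 2.57 ± 0.04 CPM with DMSO (log2 fold change 2.37 ± 0.10, edgeR adjusted p = 1.5e-13), and at 4.59 ± 0.20 CPM with harmine against 2.65 ± 0.29 CPM with water (0.79 ± 0.10). BCS1L, which inserts the Rieske protein, rose with INDY (1.30 ± 0.05), and TTC19 with harmine (0.32 ± 0.04). Of the 6 factors of complex III, 3 rose and none fell with harmine, and 4 rose and 2 fell with INDY. The falls, picked out after their values were seen, were UQCC2 (-1.25 ± 0.06) and LYRM7 (-0.62 ± 0.09). SDHAF4, which assists the assembly of SDHA, rose with harmine to 4.17 ± 0.28 CPM against 1.57 ± 0.20 CPM with water, and with INDY to 2.66 ± 0.33 CPM against 1.37 ± 0.07 CPM with DMSO. The 4 complex II factors had 2 rises and no fall with either compound.

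Of 18 complex I assembly factors, 6 rose and 5 fell with harmine, led by NDUFAF3 (0.73) and NDUFAF4 (-0.57), and 8 rose and 7 fell with INDY, led by NDUFAF5 (0.87) and NDUFAF8 (-0.78). Of 25 complex IV factors, 5 rose (20%) and 5 fell (20%) with harmine, led by SURF1 (0.61) and COA5 (0.51), and 13 rose (52%) and 9 fell (36%) with INDY, led by HIGD1A (-1.09) and PET100 (-0.93). The 5 complex V factors had 2 rises and 1 fall with harmine, where ATPAF2 fell (-0.32) and FMC1 was at 0.28, not called. With INDY they had 4 rises and 1 fall, led by TMEM242 (0.80) and FMC1 (0.50).

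Genes for mitochondrial DNA replication and transcription had 5 rises and 3 falls of 15 with harmine, led by PRIMPOL (0.41) and MGME1 (0.35), and 8 rises and 4 falls with INDY, led by PRIMPOL (-0.64) and SSBP1 (-0.47). Genes of mitochondrial RNA processing and stability had 3 rises and 5 falls of 18 with harmine and 8 and 7 with INDY. FASTKD2, an RNA-binding protein of the mitochondrial matrix, fell with harmine (-0.53 ± 0.07) and with INDY (-1.20 ± 0.07). LRPPRC, which stabilises mitochondrial mRNAs, fell with INDY to 224 ± 34.1 CPM against 342 ± 1.95 CPM with DMSO (-0.62 ± 0.07). FASTK, of which a mitochondrial form is needed for the MT-ND6 mRNA, rose with harmine (0.41 ± 0.06).

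Coenzyme Q synthesis had, of these lists, the highest share of calls with harmine, with 8 rises and 4 falls among 13 genes, led by COQ10B (-0.61) and COQ3 (0.58). With INDY there were 2 rises and 7 falls, led by COQ2 (-1.23), which attaches the side chain, and COQ3 (1.18). Of 13 genes of the tricarboxylic acid cycle, which feeds complexes I and II, 4 rose and 5 fell with harmine and 3 rose and 6 fell with INDY. SUCLG2, a subunit of the GTP-forming succinyl-CoA ligase, fell with INDY to 7.54 ± 0.64 CPM against 36.9 ± 1.54 CPM with DMSO (log2 fold change -2.29 ± 0.05, edgeR adjusted p = 6.5e-17). With harmine DLST (0.51) and OGDH (-0.43), partners in one enzyme, moved in opposite directions.

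Among 8 regulators of these genes, 1 rose and 3 fell with harmine, and 3 rose and 3 fell with INDY. PPARGC1A, the coactivator PGC-1α, was at 2.30 ± 0.25 CPM with harmine against 3.71 ± 0.72 CPM with water (log2 fold change -0.68 ± 0.15, edgeR adjusted p = 0.0009), and at 1.09 ± 0.20 CPM with INDY against 2.47 ± 0.48 CPM with DMSO (-1.17 ± 0.17, edgeR adjusted p = 5.5e-06). PPARGC1B fell with INDY (-0.58 ± 0.12), and ESRRA, a nuclear receptor that works with both, fell with harmine (-0.26 ± 0.04).

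**Figure D5:**
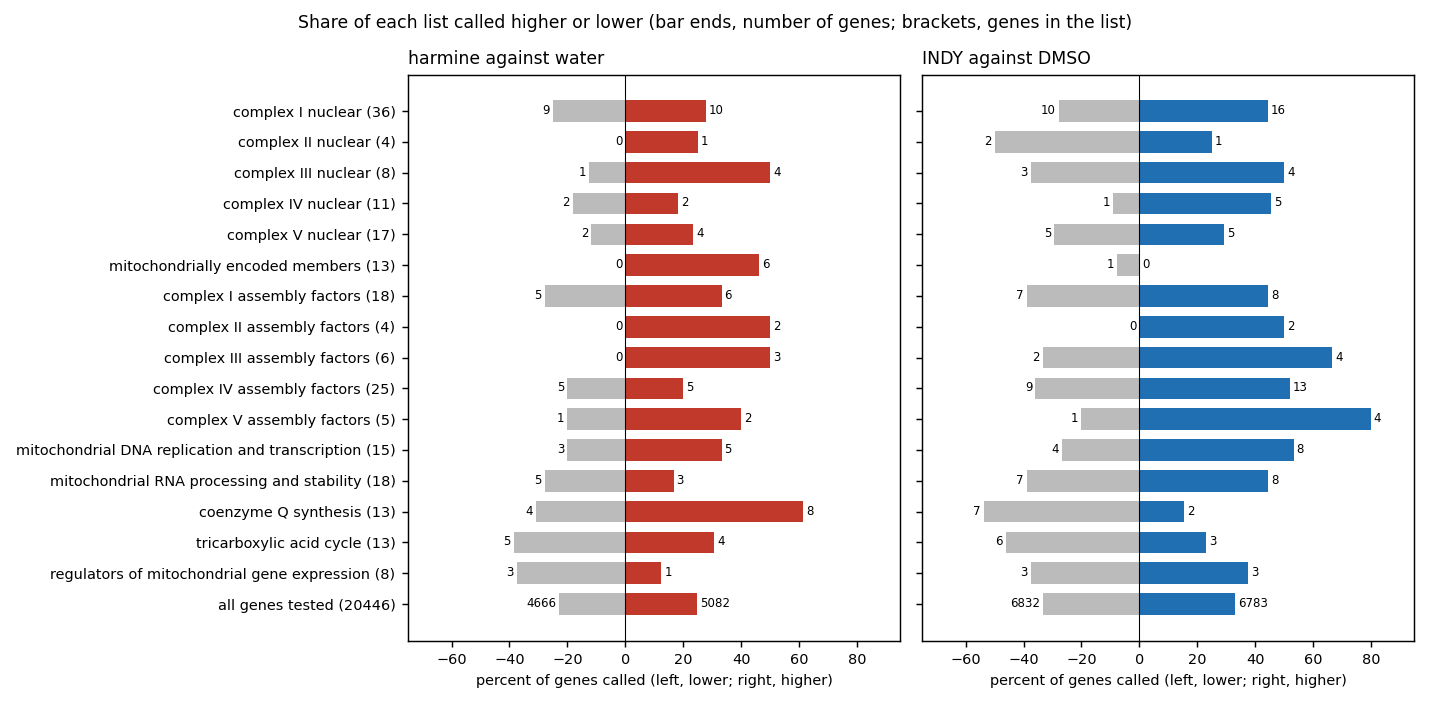
Share of the genes in each list called higher (right of 0, coloured) or lower (left of 0, grey) with harmine against water and with INDY against DMSO; bar ends give the number of genes and brackets the list's size. The bottom bars give the same for all 20446 genes tested, 24.9% and 22.8% with harmine and 33.2% and 33.4% with INDY.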

How the data were processed

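RNA of 16 libraries was sequenced from poly(A)-selected, stranded preparations. The deposited values are estimated counts of each gene that the authors obtained with Salmon 1.1 (GENCODE 37 transcripts, GRCh38 as decoy, GC and sequence bias corrections) and tximport 1.14.2. The submitters' processing notes also name edgeR 3.28.1. Reads shared between near-identical genes were divided by that estimate, which limits values of genes with copies. Groups and replicate numbers came from the sample labels.

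Estimated counts were rounded. The filterByExpr function kept 20446 of the 37914 genes that had counts, and edgeR 4.0.16 was run on them (R 4.3.3; TMM factors 0.982 to 1.02; glmQLFit and glmQLFTest; 1 model of all 4 groups) in 4 comparisons: each compound against its vehicle, the difference of these effects, and DMSO against water. The threshold was a Benjamini-Hochberg adjusted p of 0.01. The biological coefficient of variation was 0.0561. The procedure was tested on simulated data. Members and lists were chosen with earlier results of these data known.

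Where 5 or fewer genes of a complex were called in a direction, any of them could be named, and not all were. Otherwise, named genes were all mitochondrially encoded members and the 2 largest rises and falls called per complex and compound. Isoform families of single subunits and the 2 largest changes per pathway list were named too. One gene that this rule names is not reported here. Rows were matched to GENCODE 44, 151 of the 158 members by identifier and 7 by symbol. Sequence sharing is the percentage of a gene's 100-nt transcript stretches found in another gene. Promoters came from RefSeq. Alternatives were DESeq2 1.42.0, library totals or RLE factors, nuclear genes alone for scaling, 2 other filters, an adjusted p of 0.05, a 1.5-fold minimum, only the groups compared, a replicate block, and each library left out.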

Additional observations from a re-analysis of the deposited data

Results flagged for a closer look

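In 10 of 184 groups of 4 libraries checked, 1 library lay far from the other 3, judged by its gap over the group's range by Dixon's criterion. Chance alone gives about 5% of groups. No explanation was tested.

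Among mitochondrially encoded genes, MT-ND1 was at 1494 CPM in water replicate 4, against 1126 to 1174 CPM in the other water libraries. MT-ND6 was at 25.4 CPM in the same library, against 21.0 to 21.2 CPM. MT-ND3 was at 506 CPM in DMSO replicate 1, against 563 to 573 CPM in the others.

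Nuclear genes stood out in water replicate 1: NDUFV3 at 17.0 CPM against 18.7 to 19.0 CPM in the other water libraries, UQCR10 at 37.9 CPM against 35.1 to 35.4 CPM, COX7B at 78.9 CPM against 69.5 to 70.3 CPM, and NDUFC2 at 41.7 CPM against 38.3 to 38.8 CPM. Elsewhere, NDUFS5 was at 36.4 CPM in harmine replicate 3 against 38.2 to 38.3 CPM, NDUFB8 at 49.8 CPM in harmine replicate 4 against 49.1 to 49.2 CPM, and ATP5F1D at 33.5 CPM in INDY replicate 2 against 29.1 to 29.6 CPM.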

How the results depend on the processing

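No gene called in a comparison changed direction under any alternative. At a minimum of 1.5-fold, harmine called 0 nuclear genes higher and 0 lower and 0 mitochondrially encoded genes. INDY called 2 nuclear genes higher and 6 lower and 0 mitochondrially encoded genes lower. The difference of effects called 1 nuclear gene higher and 6 lower and 1 mitochondrially encoded gene lower. Of all 20446 genes tested, this minimum left 1720 higher and 1615 lower with harmine, 2914 and 3975 with INDY, and 2446 and 3511 for the difference. The count of mitochondrially encoded genes called lower with INDY was 1 as reported, 2 with library totals alone, 3 with no filter on low counts, and 3 at an adjusted p of 0.05, where 1 was called higher. With library totals alone the nuclear median with harmine was 0.0083. Between DMSO and water, DESeq2 and the fit of only the groups compared each called 1 nuclear gene higher. Fitting with no filter called 1 nuclear and 1 mitochondrially encoded gene, and an adjusted p of 0.05 called 2 nuclear genes. In the same order, these settings called 691, 311, 426 and 1058 of all genes tested higher.

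Over all genes tested, deviations of same-numbered libraries from their group means correlated at -0.053 to 0.087. The labels do not say whether equal numbers mark a shared batch. Pairing was not tested for the mitochondrially encoded genes alone, so it remains unknown for them. Their summed CPM rose in the replicate order 1, 2, 4, 3 with harmine, INDY and DMSO, but in the order 2, 1, 3, 4 with water. Each INDY sum lay below the same-numbered DMSO sum, and each harmine sum above the same-numbered water sum. With the replicate number as a block, 5 mitochondrially encoded genes were called lower with INDY, 9 higher with harmine and 1 higher with DMSO against water. Without one library at a time, mitochondrially encoded genes called higher with harmine numbered 1 to 7 and lower with INDY 1 to 3, and nuclear genes called higher with harmine 19 to 21 and with INDY 27 to 32. Added after seeing the data, a fit without INDY replicates 1 and 3 gave an INDY nuclear median of 0.11 and 2 mitochondrially encoded genes lower. The cause of these shifts was not tested. The spread of 0.12 to 0.20 (SD of log2 CPM) between libraries limits what can be called for mitochondrially encoded genes.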

Other observations

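The mitochondrial rRNAs were also present in these poly(A)-selected libraries. MT-RNR1 was at 608 ± 34.2 CPM with harmine against 489 ± 47.1 CPM with water, and at 587 ± 70.4 CPM with INDY against 467 ± 28.5 CPM with DMSO. MT-RNR2 was at 3856 ± 131 CPM with harmine against 3992 ± 302 CPM with water, and at 3866 ± 412 CPM with INDY against 3925 ± 282 CPM with DMSO (SD, n = 4 libraries each). No test is given for them.

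UQCRFS1P1, the only pseudogene that passed the filter, was at 0.40 ± 0.20 CPM with harmine against 0.20 ± 0.09 CPM with water, and at 1.04 ± 0.27 CPM with INDY against 0.57 ± 0.08 CPM with DMSO. It shares 33.4% of its stretches with UQCRFS1, was called with neither compound, and was called higher in DMSO than in water libraries (log2 fold change 1.52, edgeR adjusted p = 0.0084).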
